A study of Homo sapiens with 8 samples.

Results

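Cytosolic ribosomal proteins are the protein components of the ribosomes that translate nuclear-encoded mRNAs in the cytoplasm. Members were the genes whose symbol has the standard form of a large (RPL) or small (RPS) subunit protein, together with RPLP0, RPLP1, RPLP2 and RPSA. A gene counted when at least 1 probe set on the array named it and no other gene, and the brightest such set on average stood for it. The choice used names and mean signal and no comparison between groups. This left 56 genes among the 19775 with a probe set of their own: 32 of the large subunit, 20 of the small subunit and 4 paralogues whose symbols end in L (RPL3L, RPL10L, RPL39L and RPS27L). Of the 81 genes that fit the naming rule in RefSeq, 15 were named only on probe sets shared with another gene and 10 on none, so that RPLP0, RPSA and RPL10 have no value here.

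The cells were human embryonic stem cells labelled H9, an established line, grown in mTeSR, a feeder-free medium for pluripotent cells. They were kept undifferentiated or had been differentiated as embryoid bodies, which are aggregates in suspension that form derivatives of the germ layers. Each stage was given 0 or 20 mM ethanol for 24 h, with 2 arrays (replicates A and B) for each of the 4 combinations of stage and dose. No genetic change is named for any group, and all groups carry the same line label. The labels do not say whether duplicates came from separate cultures, so p-values measure only the spread between these arrays, which may be technical.

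A ribosome holds 1 copy of most of its proteins, and their genes are transcribed at similar high rates in growing cells. Their mRNAs usually begin with a terminal oligopyrimidine (TOP) tract, a cytosine at the cap followed by an uninterrupted run of pyrimidines. Through this tract the mTOR pathway and the RNA-binding protein LARP1 regulate translation and stability of the whole class together. Several ribosomal protein genes have paralogues with restricted expression: RPL10L and RPL39L are best known from male germ cells, RPL3L from striated muscle, and RPS27L as a target of p53.

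The sequences around the start site show a feature that most members share. RefSeq start windows (GRCh38.p14) were matched by symbol for 48 of the 56 genes. A cytosine followed by at least 4 pyrimidines stood at the annotated first base in 34 of the 48 (70.8%), against 5.14% of all 27305 genes with a window. It was present in 20 of 27 large subunit genes and 14 of 19 small subunit genes, and in neither of the 2 matched L paralogues. Each line below gives 10 bases before the start and 15 from it, 5′ to 3′ on the transcribed strand, with the tract in capitals. The genes are those with the clearest stage differences, followed by RPS27 and its paralogue RPS27L and by RPL10L.

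RPL36, chr19:5690285-5690309, plus strand: cggcgccagcCCTTCCgccacggcc

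RPL12, chr9:127451392-127451416, minus strand: cgatttccggCCTCTCggctttcgg

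RPS25, chr11:119018329-119018353, minus strand: gcagcgcttcCTTTTTgtccgacat

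RPS9, chr19:54200848-54200872, plus strand: gcttccgcgcCTCTTTCTCagtgac

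RPS27, chr1:153990752-153990776, plus strand: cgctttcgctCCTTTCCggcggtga

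RPS27L, chr15:63157463-63157487, minus strand: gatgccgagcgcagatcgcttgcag

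RPL10L, chr14:46651767-46651791, minus strand: gtagttaagagagcgcattttgact

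RPS27 and RPS27L encode closely related proteins, yet only the RPS27 window holds a tract of this kind at the annotated start. The RPL10L window has no pyrimidine run at the start. In the 300 base windows from 250 bases before to 50 bases after the start, searched on both strands, the ETS motif CCGGAAG occurred in 37.5% of the members and in 12.2% of all genes. AAGATGGC, a YY1 motif, occurred in 8.33% and 3.52%, and CTCTTTCC, a TCT initiator motif that can overlap the tract, in 12.5% and 3.70%. TATAAA occurred in 8.33% of members and 14% of all genes. These matches describe letters in a window and are no evidence of binding.

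Each array carried 54675 probe sets, and the deposited log10 signals were used here as log2. The mean signal after trimming was 500 to 500.1 on every array, while the median signal ran from 69.2 to 102 and was highest in the 2 embryoid body arrays with ethanol. For 4 of the 8 arrays a check against the named line did not match, and all 4 were of 1 stage, so that stage and line cannot be told apart in any stage difference below. The markers went mostly with the stage labels. The summed signal of 7 pluripotency genes was 96840 to 101530 in untreated undifferentiated cells and 77500 to 79965 in untreated embryoid bodies. That of 6 endoderm and yolk sac genes was 678 to 859 and 26590 to 26657 in the same order. Of the 7 pluripotency genes 5 read lower in untreated embryoid bodies and 1 higher, and 4 were called lower (24.7% of all genes tested). All 6 endoderm and yolk sac genes were called higher (28.1%). The array is a bulk measurement, in which fewer cells of a type and less RNA per cell cannot be told apart.

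Nearly all members lie close to the top of the scale. For 50 of the 56 genes the mean log2 signal was 13 or more, above the 99th percentile of the arrays, while the brightest probe set of each array read 14.95 to 15.31. The other 6 were RPL27A, RPLP2, RPL36A, RPL39L, RPL10L and RPL3L, whose own probe sets were dimmer, and 55 of 56 genes passed the filter on low signal. RPL3L failed it, with log2 values of 5.05 and 1.56 in untreated undifferentiated cells and 2.29 and 4.05 in untreated embryoid bodies. RPL36A, an X-linked large subunit gene, passed through the embryoid body arrays, so its higher value there had to appear. For comparison, 119 other genes had mean log2 signals in the span that holds the middle 80% of the members (13.91 to 14.93), and these are called genes of like signal.

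In embryoid bodies, large and small subunit genes read slightly lower with ethanol, almost without exception, and none passed the test. The median log2 change was -0.18 for the 32 large subunit genes and -0.18 for the 20 small subunit genes, a signal 1.14-fold lower, against 0.017 over all 14072 genes tested. Values were below 0 in 30 of 32 large and 20 of 20 small subunit genes, against 47.2% of all genes tested. No member was called by limma at a Benjamini-Hochberg adjusted p under 0.05, where 0.0426% of all genes were called higher and 0.0284% lower. At an unadjusted p under 0.05 there were 9 large and 5 small subunit genes (22.3% of all genes tested).

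The same drift was present in other bright genes. Of the 119 genes of like signal, 109 read below 0, with a median of -0.15. Both ethanol arrays lay below both untreated arrays in 27 of 32 large subunit genes, in all 20 small subunit genes and in 84 of the 119 genes of like signal, against 28.1% of all genes tested. Within bins of mean signal, chosen after the signals were seen, the 17 members between 14 and 14.5 had a median of -0.20 and the 80 other genes -0.13. Between 14.5 and 15.2 the medians were -0.18 for 31 members and -0.16 for 26 others. The members thus read lower than their peers by a few hundredths of a log2 unit, where 1 step of the deposited rounding is 0.033.

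**Figure D1:**
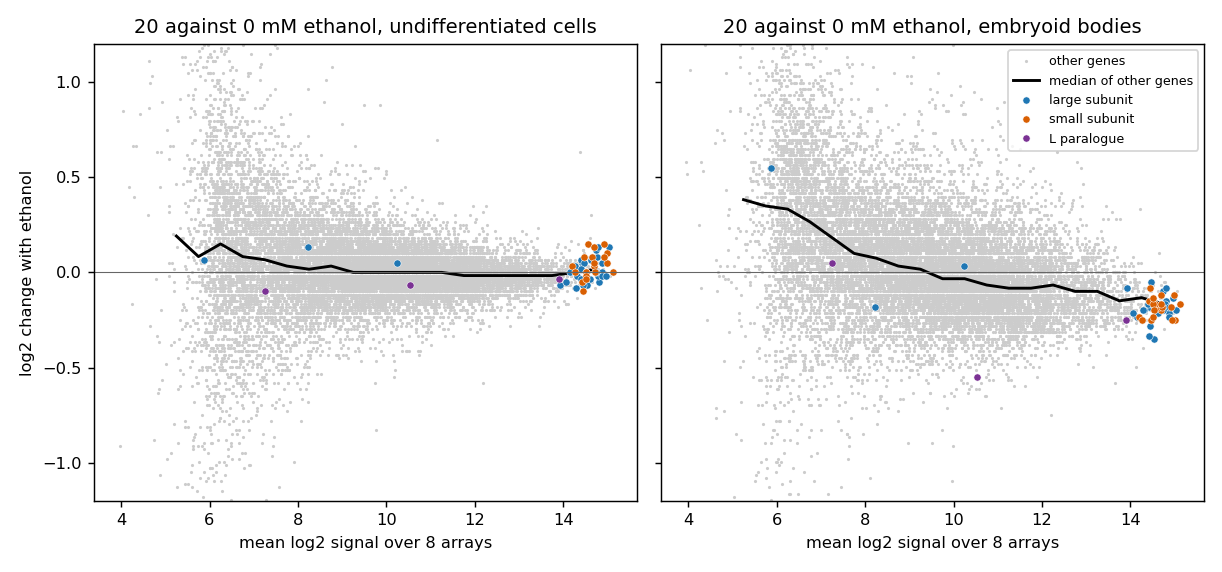
Log2 change between 20 and 0 mM ethanol (vertical) against mean log2 signal over 8 arrays (horizontal), in undifferentiated cells (left) and embryoid bodies (right). Grey points are other tested genes, the line their median in bins of at least 20 genes, and coloured points the members; the vertical axis is limited to ±1.2, so some dim genes fall outside it. In embryoid bodies the line slopes from above 0 among dim genes to below 0 among bright ones, and the members, with a median of -0.18, lie at its bright end.

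The array medians show the size of this against the replicates. The median log2 signal of the large subunit was 14.53 and 14.5 on the untreated embryoid body arrays and 14.38 and 14.25 on the treated ones, with a pooled replicate SD of 0.086. For the small subunit the values were 14.70 and 14.60 without and 14.53 and 14.42 with ethanol (pooled replicate SD 0.079). The genes of like signal read 14.25 and 14.18 without and 14.12 and 14.05 with ethanol. In all 3 sets the groups did not overlap. After subtracting the genes of like signal array by array, both subunits together stood at 0.38 and 0.40 without ethanol and at 0.33 and 0.28 with it. On the undifferentiated arrays they stood at 0.33 and 0.30 without and 0.37 and 0.32 with ethanol. In embryoid bodies the large subunit alone stood at 0.28 and 0.32 without and 0.27 and 0.20 with ethanol. The small subunit stood at 0.448 and 0.415 against 0.415 and 0.365.

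How the arrays were scaled bears on this result. Quantile normalization brought the medians to -0.035 in the large and -0.028 in the small subunit, and cyclic loess to -0.035 and -0.024. Both methods level a shift shared by the brightest probe sets, to which most members belong, whatever its origin. Centring each array on its median shifted all genes tested to a median of -0.25, and the subunit medians to -0.45 each. Relative to all genes, the members shifted by about as much under centring as in the deposited scale. Markers of some other cell types moved with ethanol too. The summed signal of 6 mesoderm and mesenchyme genes was 20654 to 21353 in untreated and 38809 to 38995 in treated embryoid bodies. Of these, 6 of 6 read above 0 and none was called. The summed signal of the 7 pluripotency genes was 77500 to 79965 and 67718 to 70767, with 6 of 7 below 0 and none called. That of 6 endoderm and yolk sac genes was 26590 to 26657 and 32874 to 33637, with 4 above 0. The 5 neuroectoderm genes stayed level, at 14229 to 14535 and 14511 to 14522. Of 3 fibroblast-like genes 2 read below 0, although their sum rose from 12974 to 13456 to 17476 to 18012. The part of these cell types in the members' change was not tested.

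Among large subunit genes, the smallest p-values belonged to RPL12, RPL18 and RPL35A. RPL12, which sits at the base of the stalk that recruits translation factors, read 14.38 and 14.32 in untreated and 14.08 and 14.05 in treated embryoid bodies. Its log2 change was -0.28 ± 0.092 (SE, limma adjusted p = 0.165, n = 2 arrays per group). RPL18 read 14.58 and 14.62 against 14.35 and 14.15, a change of -0.35 ± 0.12 (limma adjusted p = 0.169). Its dimmer own probe sets, with mean log2 signals of 9.26 and 7.08, changed by 0.47 and 0.05. RPL35A, a gene mutated in Diamond-Blackfan anaemia, read 14.45 and 14.42 against 14.25 and 13.95, a change of -0.33 ± 0.12 (limma adjusted p = 0.194). On the probe sets that represent these 3 genes the treated arrays lay below the untreated ones, and none passed the adjusted threshold.

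Among small subunit genes the 3 lowest p-values were those of RPS9, RPS15 and RPS6. RPS9, a protein at the mRNA entry channel, read 14.22 and 14.18 without and 13.98 and 13.92 with ethanol (-0.25 ± 0.078, limma adjusted p = 0.158). RPS15 read 14.52 and 14.45 against 14.28 and 14.18 (-0.25 ± 0.086, limma adjusted p = 0.177). RPS6, the substrate of the S6 kinases downstream of mTOR, read 15.02 and 14.92 against 14.78 and 14.65 (-0.25 ± 0.094, limma adjusted p = 0.202). The small subunit was narrow: its 20 changes ran from -0.25 to -0.08.

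Only RPL27A and RPL36A, both represented by dim probe sets, read above 0 in the large subunit. RPL27A changed by 0.03 ± 0.12 and RPL36A by 0.55 ± 0.44, the latter from 6.44 and 6.58 to 7.14 and 6.98 (limma adjusted p = 0.512). RPLP1, an acidic stalk protein, changed by -0.08 ± 0.13 with overlapping arrays, and its partner RPLP2 by -0.18 ± 0.097. RPS4X, the X-linked form of a small subunit protein, changed by -0.17 ± 0.092.

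**Figure D2:**
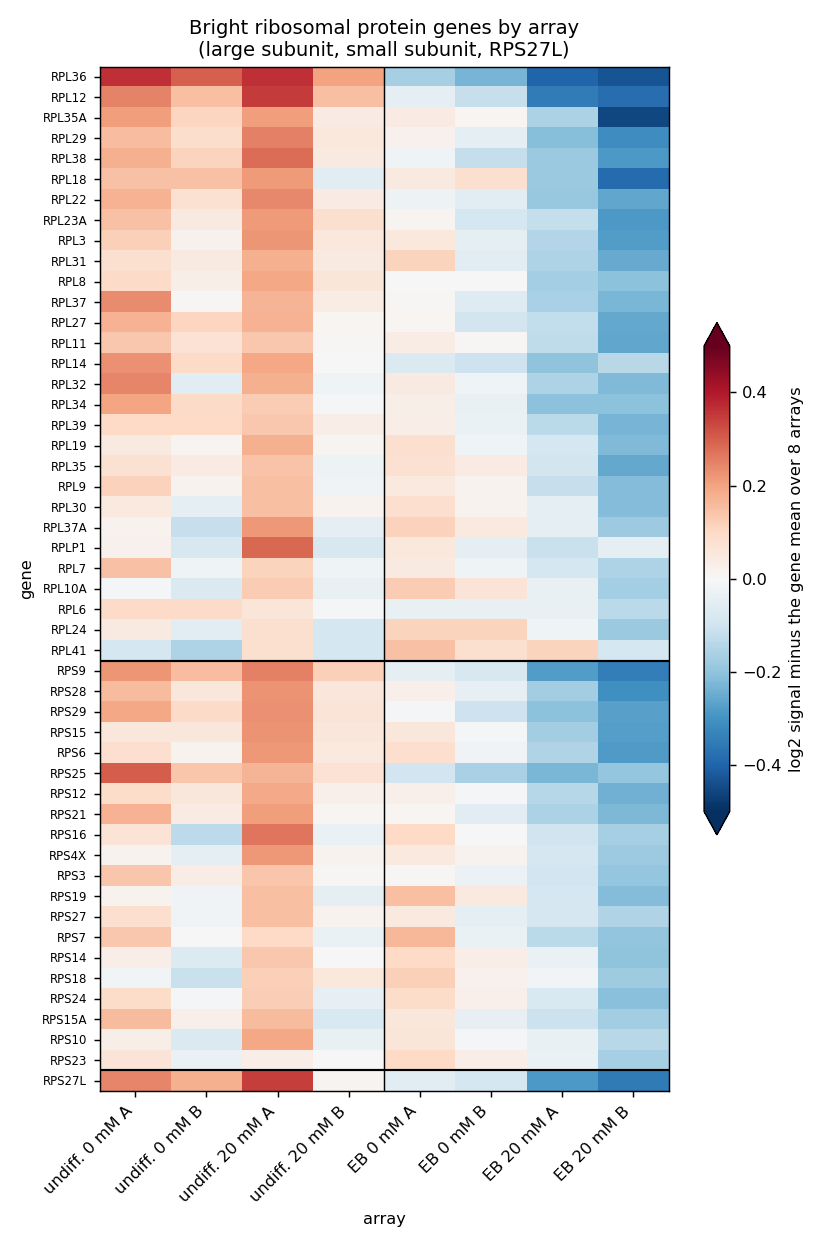
Log2 signal of each member with a mean of 13 or more, minus that gene's mean over the 8 arrays (colour, limited to ±0.5), with arrays in columns and genes in rows ordered within each subunit by stage change at 20 mM; horizontal lines separate the large subunit, the small subunit and RPS27L. The 2 embryoid body arrays with ethanol are low in nearly every row, and the undifferentiated 20 mM replicate A array is high in nearly every row.

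In undifferentiated cells, ethanol left both subunits near 0. The median log2 change was 0.017 in the large subunit, with 12 genes below and 17 above 0, and 0.033 in the small subunit, with 4 below and 11 above, where 45% of all genes tested lay below 0. All 55 members lay between -0.10 and 0.15, and none was called, where 0.00711% of all genes tested were called higher and 0% lower. No member had an unadjusted p under 0.05, against 7.01% of all genes. Treated and untreated arrays did not overlap in 2 subunit genes upward (15.4% of all genes tested) and 1 downward (12.1%). The genes of like signal had a median of 0.

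This comparison rested on arrays that differed within the treated group. The large subunit median was 14.75 on replicate A and 14.57 on replicate B at 20 mM, and 14.67 and 14.58 at 0 mM. Without the treated replicate A the medians became -0.083 for the large and -0.050 for the small subunit. Without the treated replicate B they became 0.083 and 0.12, so the sign of the median depended on 1 array. RPS18 had the smallest p in the small subunit, with 14.55 and 14.45 at 0 mM and 14.68 and 14.62 at 20 mM (0.15 ± 0.090, limma adjusted p = 0.817). The arrays of RPS18 did not overlap, and the difference did not pass the test.

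Subtracting the ethanol change of undifferentiated cells from that of embryoid bodies gave a median of -0.22 in the large subunit (30 of 32 below 0) and -0.22 in the small subunit (19 of 20 below 0). No member was called, as 0% of all genes tested were called in either direction. At an unadjusted p under 0.05 limma gave 5 members, against 13% of all genes. The genes of like signal had a median of -0.15 with 105 of 119 below 0, against 50.8% of all genes tested. The smallest p among small subunit genes gave an adjusted p of 0.358, and that among large subunit genes 0.376. Under quantile normalization the medians were -0.034 (large) and -0.035 (small), and under cyclic loess -0.079 and -0.088.

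Embryoid bodies at 0 mM read lower than undifferentiated cells at 0 mM in 4 subunit genes that passed the test: RPL36, RPL12, RPS25 and RPS9. The large subunit had a median of -0.075 with 2 genes called lower of 32 and only RPL36A called higher, and the small subunit -0.025 with 0 higher and 2 lower of 20. Of all genes tested, 28.1% were called higher and 24.7% lower. Of the 119 genes of like signal, 9 were called higher and 31 lower, with a median of -0.13. Values below 0 were read in 21 large and 11 small subunit genes (48.8% of all genes tested), and 9 of 55 members had an unadjusted p under 0.05 (59.3%). Both embryoid body arrays lay below both undifferentiated ones in 15 large and 7 small subunit genes (38.1%), and above them in 7 and 2 (40.3%).

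RPL36, a large subunit protein, showed the clearest stage difference of the subunit genes. The undifferentiated arrays read 14.42 and 14.35 and the embryoid body arrays 13.89 and 13.82, a log2 change of -0.53 ± 0.083 (limma adjusted p = 0.00345). RPL12 read 14.68 and 14.58 against 14.38 and 14.32 (-0.28 ± 0.092, limma adjusted p = 0.0444). RPS25, known for its role in translation from some viral internal entry sites, read 14.75 and 14.58 against 14.35 and 14.28 (-0.35 ± 0.086, limma adjusted p = 0.0177). RPS9 read 14.48 and 14.42 against 14.22 and 14.18 (-0.25 ± 0.078, limma adjusted p = 0.0394). In these 4 genes both embryoid body arrays lay below both undifferentiated arrays.

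RPL36A read 4.25 and 5.58 in undifferentiated cells, below the array medians, and 6.44 and 6.58 in embryoid bodies. It entered the test through the embryoid body arrays, so its call higher carries no weight and no fold is given. RPL41, which encodes a very short basic peptide, read 14.65 and 14.58 against 14.88 and 14.82 (0.23 ± 0.10, limma adjusted p = 0.102). RPLP1 changed by 0.03 ± 0.13, RPLP2 by 0.12 ± 0.097 and RPS4X by 0.05 ± 0.092.

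At 20 mM, on arrays not used at 0 mM, embryoid bodies read lower than undifferentiated cells across both subunits. The median was -0.27 in the large subunit, with 15 genes called lower of 32 and only RPL36A called higher, and -0.23 in the small subunit, with 0 higher and 8 lower of 20. Of all genes tested 29.2% were called higher and 27.1% lower, and of the genes of like signal 8 and 61 of 119, with a median of -0.25. The members' median thus matched that of their peers, and their shares called lower (15 of 32, 8 of 20) stood beside 61 of 119. Values lay below 0 in 29 large and 20 small subunit genes (48.4% of all genes tested), and 35 of 55 members had an unadjusted p under 0.05 (61.9%). Embryoid body arrays lay below the undifferentiated ones in 25 large and 19 small subunit genes (37.6%), and above them in 2 and 0 (39.6%). Fitted to the 20 mM arrays only, limma called 8 members lower (21.7% of all genes tested) and 1 higher (25.8%), so the calls at the 2 doses are not independent.

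**Figure D3:**
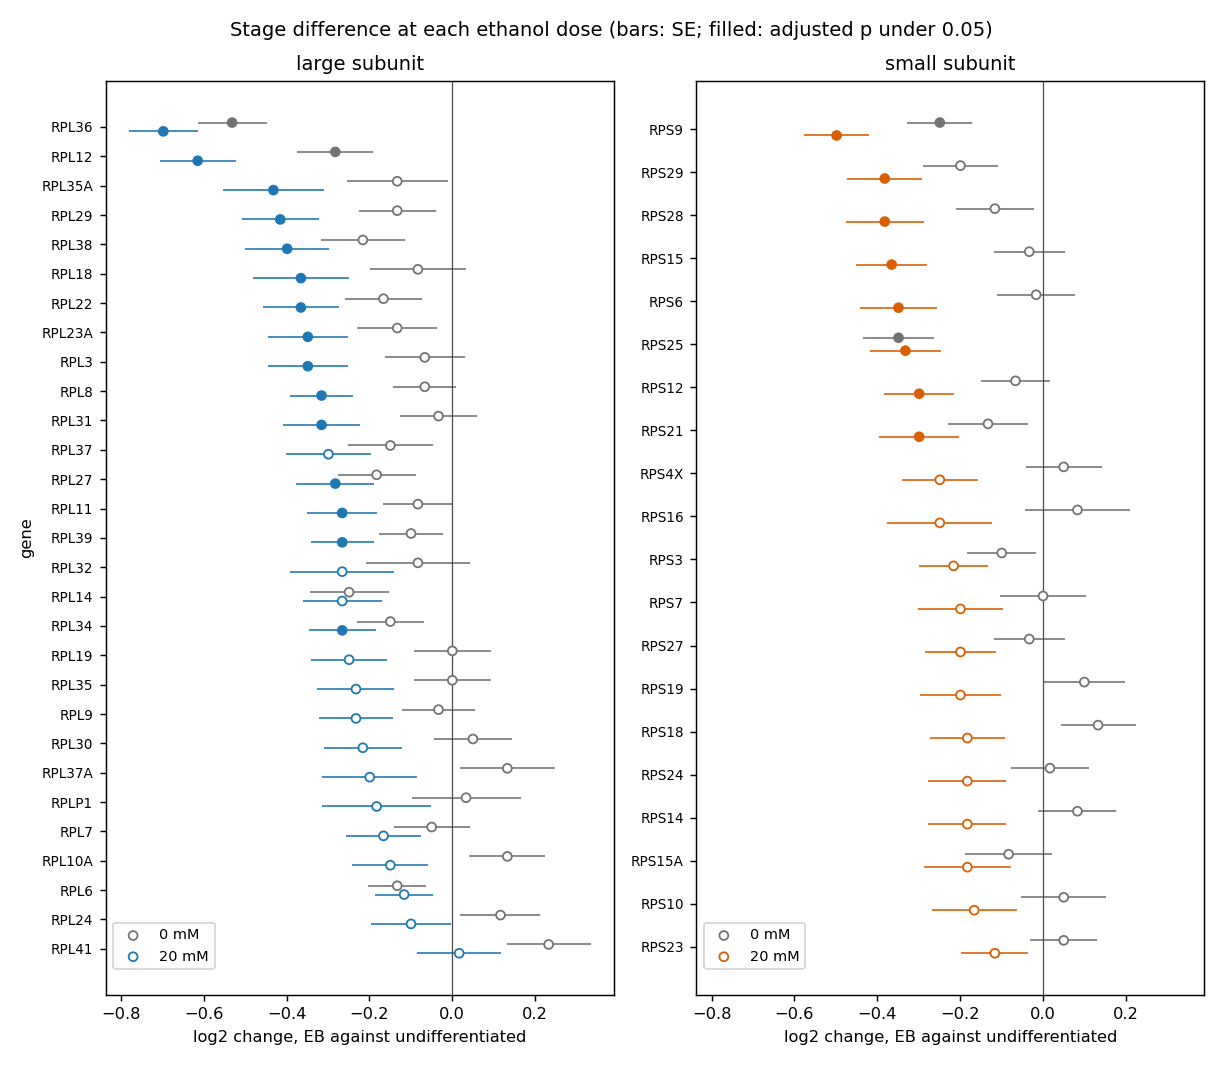
Log2 change between embryoid bodies and undifferentiated cells at 0 mM (grey) and 20 mM (colour) for large (left) and small (right) subunit genes with a mean log2 signal of 13 or more; bars are SE and filled points have an adjusted p under 0.05. RPL36 and RPL12 lie farthest to the left at 20 mM, at -0.70 and -0.61, RPL41 sits near 0 at 0.02, and most genes lie further left at 20 mM than at 0 mM.

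RPL36, RPL12 and RPS9, all called lower at 0 mM, led the order of the subunit genes at 20 mM. RPL36 changed by -0.70 ± 0.083, from 14.42 and 14.25 to 13.65 and 13.62 (limma adjusted p = 0.00113). RPL12 changed by -0.61 ± 0.092, from 14.78 and 14.58 to 14.08 and 14.05 (limma adjusted p = 0.00252), and RPS9 by -0.50 ± 0.078 (limma adjusted p = 0.00299). Beyond these, the largest falls in the large subunit were RPL35A (-0.43), RPL29 (-0.42) and RPL38 (-0.40), the last needed for translation of certain Hox mRNAs in the mouse embryo. In the small subunit they were RPS29 and RPS28 (-0.38 each), RPS15 (-0.37) and RPS6 (-0.35). RPS25, also called lower at 0 mM, came behind all of these. It changed by -0.33 ± 0.086 (limma adjusted p = 0.0195), close to its value at 0 mM.

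Several members at 20 mM stood apart from this order. RPL41 changed by 0.02 ± 0.10 and RPL27A by 0.32 ± 0.12 (limma adjusted p = 0.0740). RPL36A again read higher, at 7.14 and 6.98 against 5.32 and 4.65, and its call is void as at 0 mM. RPL6 changed by -0.12 ± 0.070, RPLP1 by -0.18 ± 0.13, RPLP2 by -0.20 ± 0.097 and RPS4X by -0.25 ± 0.092, and none of these 4 passed the test.

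The small uniform part of the stage difference depended on scaling. Cyclic loess, which removes trends with signal, turned the subunit medians to 0.19 and 0.25 at 0 mM and to 0.12 and 0.18 at 20 mM. Quantile normalization gave -0.061 and -0.050 at 20 mM, with 10 members called (8 lower) in place of 27 (26 lower). Leaving out 1 array moved the number of members called between 3 and 10 at 0 mM, against 7 with all arrays, and between 6 and 33 at 20 mM. The counts of 3 came without replicate A of the untreated undifferentiated cells or either untreated embryoid body array. At 20 mM the counts were 10 without treated undifferentiated replicate A, and 16 and 6 without treated embryoid body replicates A and B. Among the calls at 0 mM, RPL36 was called lower under 16 of 18 alternatives, RPS25 under 14 of 18, RPL12 under 8 of 18 and RPS9 under 7 of 17. The highest adjusted p over these alternatives was 0.117 for RPL36, 0.338 for RPS25, 0.814 for RPL12 and 0.9996 for RPS9. At 20 mM RPL12 was called lower under each of 18 alternatives, RPL36 under 16 of 18, RPS9 under 15 of 17 and RPL35A under 11 of 19. Of all members called, 2 at 0 mM and 3 at 20 mM were called under every alternative that gave them a value.

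The L paralogues read lower in embryoid bodies. RPL39L was called lower at both doses, RPL10L likewise, and RPS27L at 20 mM. Against a background of 24.7% called lower at 0 mM and 27.1% at 20 mM, 2 and 3 of the 3 tested paralogues were called. RPS27L was bright, with a mean log2 of 13.9. Of the 416 other genes between 13 and 14, 62.5% were called lower at 20 mM, with a median of -0.35.

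RPL39L, the autosomal paralogue of the X-linked RPL39, read 11.13 and 11 in untreated undifferentiated cells and 10.33 and 10.26 in untreated embryoid bodies. The undifferentiated cells given ethanol read 11.03 and 10.96, and the embryoid bodies given ethanol 9.73 and 9.77. The 4 embryoid body arrays were all below the 4 undifferentiated arrays, and the treated embryoid bodies were lowest. The stage change was -0.76 ± 0.078 at 0 mM (limma adjusted p = 0.000806) and -1.25 ± 0.078 at 20 mM (limma adjusted p = 0.000151). The parent RPL39 changed by -0.10 ± 0.076 and -0.27 ± 0.076 in the same comparisons.

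Ethanol in embryoid bodies changed RPL39L by -0.55 ± 0.078, with a limma adjusted p of 0.0665, the lowest of all members. The change in undifferentiated cells was -0.066 ± 0.078, and the difference between the stages was -0.48 ± 0.11 (limma adjusted p = 0.278). With a filter at the 75th percentile of each array, RPL39L passed in embryoid bodies at an adjusted p of 0.0203, and with a trended, robust variance at 0.0114. These fits called more genes throughout: the filter 2.65% and the variance model 4.04% of all genes lower, against 0.0284% as deposited. In the latter fit RPL12, RPL18 and RPS9 were among 4 of 55 members called lower.

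RPL10L read 8.11 and 7.67 in untreated undifferentiated cells and 6.78 and 6.48 in untreated embryoid bodies. With ethanol the readings were 7.77 and 7.81 against 6.91 and 6.44. The stages did not overlap at either dose, and the embryoid body readings were close to the median of those arrays (6.41 and 6.68 without and with ethanol). The changes were -1.26 ± 0.21 at 0 mM (limma adjusted p = 0.00466) and -1.11 ± 0.21 at 20 mM (limma adjusted p = 0.00661). With ethanol it changed by 0.05 ± 0.21 in embryoid bodies and by -0.10 ± 0.21 in undifferentiated cells. Its parent RPL10 shares its probe sets with another gene and was not analysed here.

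RPS27L read 14.15 and 14.08 in untreated undifferentiated cells and 13.85 and 13.82 in untreated embryoid bodies, a change of -0.28 ± 0.12 (limma adjusted p = 0.0928). At 20 mM it read 14.25 and 13.92 against 13.62 and 13.55, a change of -0.50 ± 0.12 (limma adjusted p = 0.0142). RPS27 changed by -0.03 ± 0.086 and -0.20 ± 0.086 in the same comparisons, and neither passed the test. Whether a paralogue and its parent changed by different amounts was not tested. RPL39L and RPL10L were called lower under every alternative that gave them a value, at both doses. RPS27L was called lower at 20 mM under 15 of 19 alternatives, and not under quantile normalization, cyclic loess or with only the arrays of that dose.

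**Figure D4:**
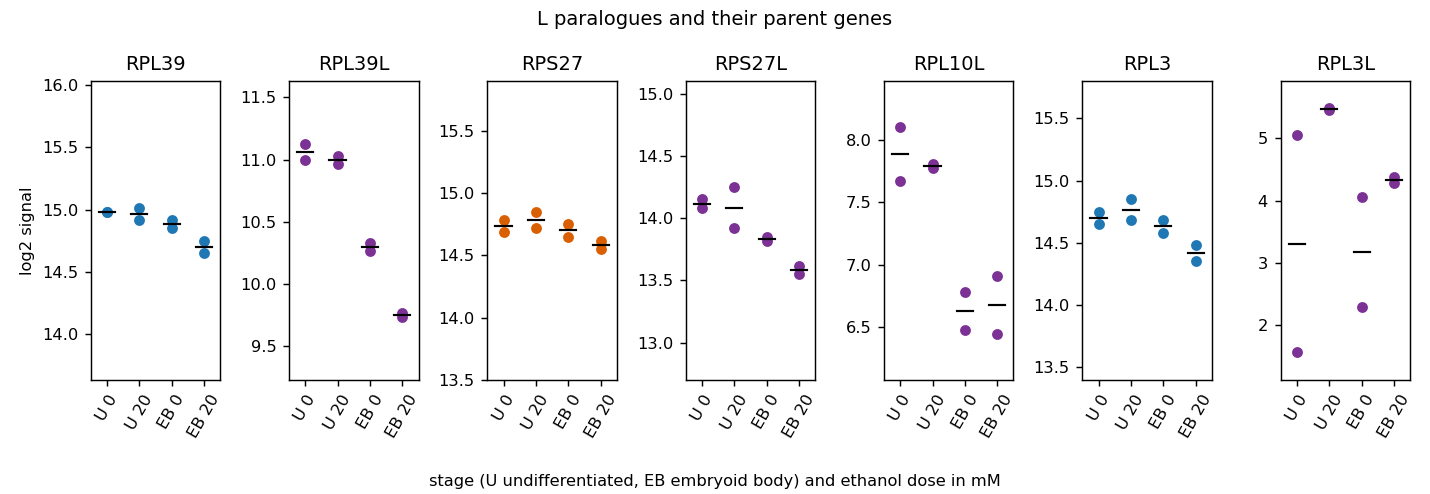
Log2 signal on each array (points) and group mean (bars) for the L paralogues (purple) and those parent genes with a probe set of their own (blue, large subunit; orange, small subunit), by stage and ethanol dose in mM. All panels span 2.4 log2 units except RPL3L, which spans 4.8; levels are not comparable between panels. RPL39L and RPL10L are lower in all 4 embryoid body arrays, and RPL3L, below the filter, scatters from 1.56 to 5.48.

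Members with several probe sets give a second reading of the same gene. The 56 genes had 117 probe sets of their own, of which 95 belonged to the 34 genes with more than 1. The 20 further probe sets with a mean log2 of 13 or more and a reading above the median on all arrays all read lower with ethanol in embryoid bodies, with a median of -0.18. They came from 15 of the same genes, so they are no separate evidence. The 27 dimmer ones had a median of 0.03, with 12 below and 14 above 0. In the stage comparison at 0 mM the dimmer ones ran from -1.03 to 1.28.

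The largest disagreement within a gene concerned dim probe sets. RPS15A, a small subunit protein, changed by -0.08 on the probe set that represents it, by -0.73 on another and by 1.28 on the dimmest. RPL35A changed by -0.13, -0.38 and -0.96 on its 3 brightest sets and by 1.13 on the next. Probe set names ending in _x_at or _s_at, which mark probes shared among transcripts or families, represent 13 and 29 of the 56 genes. Ribosomal protein genes have many processed pseudogenes, so readings from such sets may combine several transcripts.

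**Figure D5:**
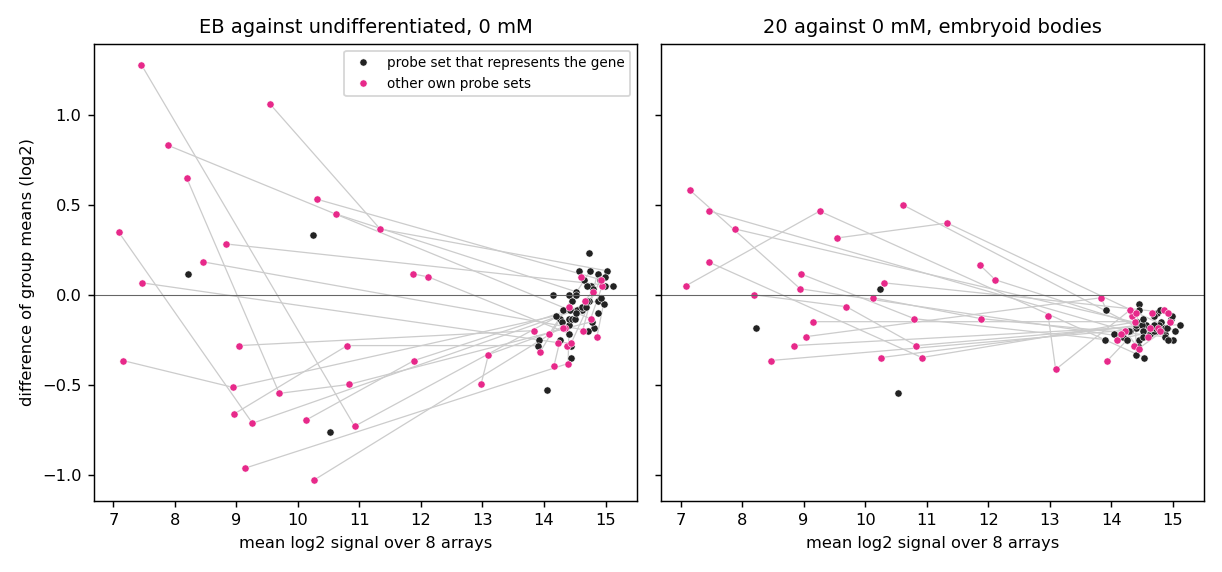
Difference of group means (log2) against mean log2 signal for the members' own probe sets that read above the array median on all 8 arrays, between embryoid bodies and undifferentiated cells at 0 mM (left) and between 20 and 0 mM ethanol in embryoid bodies (right). Black points represent their gene, pink points are other probe sets and grey lines join sets of the same gene; bright sets cluster and dim ones spread, from -1.03 to 1.28 at left.

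Members with and without a TOP tract at the annotated start gave similar values. The split rests on the annotated first base. Some windows counted as without a tract, such as those of RPL10A and RPL9, hold a pyrimidine run a few bases further on. The values therefore do not compare presence with absence of a tract. With ethanol in embryoid bodies the median was -0.18 for the 34 members with a tract and -0.20 for the 12 tested subunit genes without one. At 20 mM the stage medians were -0.26 and -0.26. RPL36, RPL12, RPS25 and RPS9, whose windows are printed above, all have a tract, and so do most matched members that were not called at 0 mM.

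Among ribosomal proteins outside the naming rule, 5 of 7 were tested. All 5 read below 0 with ethanol in embryoid bodies (median -0.18), against 47.2% of all genes tested, and none was called. Between stages 3 of the 5 were called lower at 0 mM (24.7% of all genes tested) and 4 at 20 mM (27.1%). These 5 were not matched to other genes by signal. RPL22L1, the paralogue of RPL22, changed by -1.13 ± 0.12 at both doses (limma adjusted p = 0.000817 at 0 mM), while RPL22 changed by -0.17 ± 0.092 and -0.37 ± 0.092. RPL36AL changed by -0.58 ± 0.063 and -0.83 ± 0.063.

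Translation factors whose mRNAs carry a TOP tract are regulated through the same element. All 11 tested read below 0 with ethanol in embryoid bodies (median -0.18), and none was called. So did 47.2% of all genes tested and 109 of the 119 genes of like signal, which were not split by tract. At 20 mM 7 of the 11 were called lower between stages, against 27.1% of all genes tested and 61 of the 119 genes of like signal. The median was -0.37, and -0.25 in the genes of like signal. Those called included EIF4B (-0.70), an activator of the EIF4A helicase, and EIF3H (-0.65), a subunit of the EIF3 initiation complex. At 0 mM 5 were called lower, against 24.7% of all genes tested and 31 of the 119 genes of like signal. Called higher was 1, against 28.1% and 9 of the 119. The median was -0.23, and -0.13 in the genes of like signal. The factors were not matched to those genes by signal. The factors were not tested against the subunit genes.

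Ribosome assembly genes were called in 1 direction. Of 26 tested, 11 were called lower at 0 mM (24.7% of all genes tested) and 12 at 20 mM (27.1%), and none higher (28.1% and 29.2%). FBL, the methyltransferase of box C/D small nucleolar complexes, changed by -0.58 and -0.80, NHP2, a protein of box H/ACA complexes, by -0.53 and -0.71, and NOB1, the nuclease that matures 18S rRNA, by -0.73 and -0.85. With ethanol in embryoid bodies 18 of the 26 read below 0 (median -0.11), against 47.2% of all genes tested, with no call.

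RNA polymerase I genes and regulators were called in both directions. With 11 and 12 genes, the lists are too short to tell their shares from those of all genes tested. Of 11 polymerase I genes, 2 were called higher and 4 lower at each dose, against 28.1% and 24.7% of all genes at 0 mM and 29.2% and 27.1% at 20 mM, including TAF1D (1.35 at 0 mM) and POLR1D (-0.80 at both). Of 12 regulators, 2 were called higher and 3 lower at 0 mM, and 1 and 3 at 20 mM. TSC1, a subunit of the complex that restrains mTOR, changed by 0.43 at 0 mM and 0.50 at 20 mM. MYC, which activates ribosomal genes, changed by -1.41 at 0 mM and -1.21 at 20 mM, and EIF4EBP1, an mTOR-controlled repressor of cap-dependent translation, by -0.95 and -0.83. LARP1, which binds TOP tracts, changed by -0.23 and -0.30.

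Mitochondrial ribosomal proteins, which serve a separate ribosome, were mostly called lower in embryoid bodies. Of 74 tested, 52 were called lower (24.7% of all genes tested) and 1 higher (28.1%) at 0 mM, with a median of -0.45. At 20 mM 60 were called lower (27.1%) and 0 higher (29.2%), with a median of -0.53. MRPS16 changed by -0.65 and -1.08. With ethanol in embryoid bodies 64 of 74 read below 0, against 47.2% of all genes tested, with a median of -0.22 and no call. No test was made between the mitochondrial and cytosolic genes, whose probe sets differ in signal. The mitochondrial genes were also not set beside other genes of their own signal.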

How the data were processed

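RNA of 8 samples was measured on Affymetrix arrays. The deposited values are log10 signals with 2 decimals; the authors' processing is RMA per the submitters' processing notes, without a version, whereas the shared trimmed mean of 500 (2% trimmed at each end) is the form of globally scaled MAS 5 signals. They were multiplied by log2(10), with no further normalization. Probe sets were named from the platform annotation, which can be old. Genes above the array median on at least 2 arrays were tested (14072 of 19775). Limma 3.58.1 in R 4.3.3 fitted 4 group means (4 residual and 1.81 prior degrees of freedom), with Benjamini-Hochberg adjustment over all tested genes at 0.05. A check of the fit on simulated data required recovery only of changes of 2 log2 units, far larger than the members' median changes. The plan had assumed log2 RMA values. The small number of arrays limits the precision.

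Members and gene lists were chosen with earlier results of these data known. Genes named were RPLP0, RPLP1, RPLP2, RPSA, RPS4X, the L paralogues with their parents, per comparison the 5 strongest calls in each direction and subunit (or the 3 smallest p), the brightest and dimmest members, those against the common direction, those whose probe sets disagree, and up to 4 genes of each list by p; RPL22 was added beside its paralogue. Like-lettered replicates were not paired. Alternatives covered the filter, the probe set, the normalization, the variance model, the arrays fitted and each array left out.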

Additional observations from a re-analysis of the deposited data

Results flagged for a closer look

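In 3 members every array moved one way in 1 comparison and the opposite way in its counterpart, and in each the test of the difference missed the threshold. The share of all genes tested with such a pattern was not computed, so the count is no result about the members. Without overlap, 28.1% of all genes tested lay lower with ethanol in embryoid bodies and 15.4% higher in undifferentiated cells. Between stages 37.6% lay lower at 20 mM and 40.3% higher at 0 mM. RPLP2, a stalk protein read on a dim probe set, changed with ethanol by -0.18 in embryoid bodies and by 0.13 in undifferentiated cells, a difference of -0.32 (limma adjusted p = 0.401). Its stage change was -0.20 at 20 mM and 0.12 at 0 mM, which is the same difference of -0.32. RPS18 changed with ethanol by -0.17 in embryoid bodies and by 0.15 in undifferentiated cells, a difference of -0.32 (limma adjusted p = 0.384), and between stages by -0.18 at 20 mM and 0.13 at 0 mM. RPS19, a gene mutated in Diamond-Blackfan anaemia, changed between stages by -0.20 at 20 mM and 0.10 at 0 mM, a difference of -0.30 (limma adjusted p = 0.415). The undifferentiated 20 mM replicate A array, on which most members read high, enters each of these differences, and its part was not tested.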

How the results depend on the processing

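With ethanol in embryoid bodies the median was -0.18 in each subunit. It was -0.035 (large) and -0.028 (small) after quantile normalization, -0.035 and -0.024 after cyclic loess and -0.45 in both after median centring; for the small subunit it was -0.073 with the mean of all own sets and -0.0083 with the probe set of highest SD. Calls numbered 0, but 1 lower with the filter at the 75th percentile (2.65% of all genes tested there were lower), 4 lower with a trended, robust variance (4.04%) and 51 lower with centring (26.4%), against 0.0284% as deposited. In undifferentiated cells centring gave -0.12 (large) and -0.10 (small), and leaving out 1 array -0.083 to 0.083 and -0.050 to 0.12. The difference of the ethanol effects was -0.034, -0.079 and -0.35 in the large subunit under quantile normalization, cyclic loess and centring, and -0.035, -0.088 and -0.36 in the small. For the small subunit it was also -0.12 with the mean of probe sets, -0.14 without _x_at and _s_at sets, 0.050 with the set of highest SD and -0.32 to -0.15 with 1 array left out.

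Between stages at 0 mM, 7 members were called, 6 of them lower, and the 1 higher was RPL36A. The count was 4 with no filter (all lower), 14 without _x_at and _s_at sets (10 lower), 13 with the set of highest SD (7 lower), 39 with centring (38 lower, with 41.3% of all genes lower), 13 with a trended variance (10 lower) and 3 to 10 with 1 array left out. Cyclic loess turned the balance, with 28 called, 25 of them higher (26.6% of all genes). Medians were 0.19 (large) and 0.25 (small) with cyclic loess and -0.36 and -0.31 with centring; for the small subunit -0.23 without _x_at and _s_at sets and 0.083 with the set of highest SD. At 20 mM 27 were called, 26 lower. The count was 16 with no filter (15 lower), 10 with quantile normalization (8 lower), 54 with centring (53 lower, with 48.5% of all genes lower), 9 with only the arrays of that dose (8 lower) and 6 to 33 with 1 array left out. With cyclic loess it was 17, of which 12 were higher (27.3% of all genes). Medians were -0.061 and -0.050 with quantile normalization, 0.12 and 0.18 with cyclic loess and -0.68 and -0.65 with centring; for the small subunit -0.13 with the set of highest SD and -0.32 to -0.15 with 1 array left out.

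Members called with or without the alternative turned direction mostly under cyclic loess. At 0 mM these were RPS27 (0.24), RPS15 (0.23), RPS6 (0.27), RPL8 (0.20), RPL7 (0.24), RPL31 (0.25), RPL9 (0.24) and RPS12 (0.21). At 20 mM they were RPL39 (0.16), RPL3 (0.055), RPS27 (0.21), RPL18 (0.031), RPS15 (0.025), RPS6 (0.079), RPL34 (0.11), RPL6 (0.27), RPS18 (0.22), RPS25 (0.057), RPL8 (0.087), RPS19 (0.23), RPS14 (0.22), RPS29 (0.029), RPS23 (0.33), RPL7 (0.26), RPL10A (0.26), RPL11 (0.14), RPL22 (0.021), RPL23A (0.042), RPL24 (0.32), RPL27 (0.14), RPL31 (0.11), RPS10 (0.27), RPS12 (0.11) and RPS21 (0.095). With the probe set of highest SD, RPS15A (1.28) and RPL7 (1.81) turned at 0 mM, and RPL35A (0.61), RPL37A (1.41), RPS16 (0.70), RPS15A (1.36), RPL36 (0.48), RPS19 (1.16), RPS10 (0.43), RPS24 (0.65) and RPL7 (1.99) at 20 mM. With the mean of probe sets RPL7 turned at 0 mM (0.51) and RPS6 (0.029), RPL37A (0.60) and RPL7 (0.53) at 20 mM. Without _x_at and _s_at sets RPL7 (1.81) turned at 0 mM and RPL37A (1.41), RPS24 (0.65) and RPL7 (1.99) at 20 mM. At 20 mM RPL34 turned under quantile normalization (0.010) and RPL41 under centring (-0.40), as did RPS24 at 0 mM under centring (-0.27). The causes were not tested. A fit with the replicate block called 0 members with ethanol in embryoid bodies, 7 between stages at 0 mM and 33 at 20 mM; the labels tie like-lettered arrays by letter only. Their deviations correlated by -0.026 to 0.049 over all genes tested and by -0.59 to 0.61 over the members, although the median of both subunits was higher on replicate A than on B in all 4 groups, as was that of the genes of like signal. With 2 arrays per group and values rounded to 0.033 log2, changes of the size of the medians are near the limit of what these arrays resolve.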
